A study of Arabidopsis thaliana with 30 samples.

Results

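The sal1 mutant of Arabidopsis thaliana was compared with the wild type grown for it, in leaves at the bolting stage under days of 12 h of light. The members are 6 RNA-seq libraries chosen by their labels, out of 30 in the series: 3 of sal1 and 3 of its wild type. All 6 are of the accession Col-0, grown at 22 and 20 °C with no heat treatment, and the replicates are full siblings. The allele of sal1 is not given in the sources used here. The sample labels name leaf, while the design text speaks of aboveground tissue at bolting or flowering. The other 24 libraries hold cue1, hda6 and msh1, which are mutants of a plastid envelope transporter, a histone deacetylase and an organelle-targeted MutS homologue, and their own wild types at 12 h or 16 h of light.

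SAL1 is a phosphatase of chloroplasts and mitochondria that degrades 3′-phosphoadenosine 5′-phosphate (PAP). PAP is what remains when a sulfotransferase has moved the sulfate of PAPS, the activated form of sulfate, onto its acceptor. In drought and high light PAP accumulates and acts as a signal between chloroplast and nucleus. It is a known inhibitor of the XRN 5′ to 3′ exoribonucleases. XRN2 and XRN3 act in the nucleus, where they degrade RNA made past the 3′ end of a gene and trim ribosomal RNA precursors, and XRN4 acts in the cytoplasm, among others on the 3′ products of microRNA cleavage.

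The sal1 libraries held 20138898 to 21240736 counts on nuclear genes and the wild-type libraries 15631894 to 19975908. A count was seen for 25094 to 25145 genes in sal1 and for 23530 to 23834 genes in wild type. Entries assigned to no gene made up 49.2% to 49.4% in sal1 and 48.5% to 48.7% in wild type. Between libraries of 1 group the correlation of log2 CPM was 0.974 to 0.989, and between the groups 0.850 to 0.904, as a description across genes that share these libraries. The first principal component held 84.9% of the variance and separated the groups. Levels are given as CPM, counts divided by the library size after TMM scaling, in the order of replicates 1, 2 and 3.

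SAL1 itself (AT5G63980, chromosome 5, 25610002 to 25611802, plus strand, protein-coding) had 289, 212 and 234 CPM in sal1 and 88.5, 75.0 and 70.7 CPM in wild type. Every sal1 library lay above every wild-type library, so the transcript was higher and not lower in the mutant, and its level does not check the label. The log2 fold change was 1.65 ± 0.14 (SE, n = 3 each; edgeR quasi-likelihood test, adjusted p = 0.000112). In the other 8 groups the mean level lay between 71.9 and 123 CPM. The next gene on the same strand, AT5G63990, a SAL1 homologue that starts 1293 bases past its end, had 64.8, 58.3 and 55.3 CPM in sal1 and 14.7, 15.2 and 12.4 CPM in wild type. It rose as well, by 2.08 ± 0.11 on the log2 scale (adjusted p = 1.17e-05). The third of these neighbours, SAL2 (AT5G64000), averaged 22.2 ± 2.4 CPM in sal1 and 20.6 ± 8.0 CPM in wild type (SD, n = 3 each) and did not pass the test, but its exonic bases overlap a gene on the other strand nearly throughout, and reads of the pair cannot be told apart.

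Of 21839 nuclear genes tested, 10103 were called at an adjusted p under 0.05, which is 46.3%. A total of 5452 genes (25.0%) was higher in sal1 and 4651 (21.3%) was lower. With a log2 fold change of at least 1 in size as a further condition, 2965 genes (13.6%) were higher and 1051 (4.81%) lower. The median over all tested genes was 0.01. The balance changed with the level: with the genes in 4 classes of equal size by mean CPM, 31.6% were higher and 11.3% lower in the lowest class, and 19.2% were higher and 34.8% lower in the highest. Of the tested genes 254 had no count in any wild-type library and passed the filter through sal1 alone, and all 254 were called higher. No tested gene lacked counts in all sal1 libraries. These 254 genes are part of the shares above. The values of the groups did not overlap for 12748 genes (58.4%). Any list of genes described below is to be read against these shares.

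**Figure D1:**
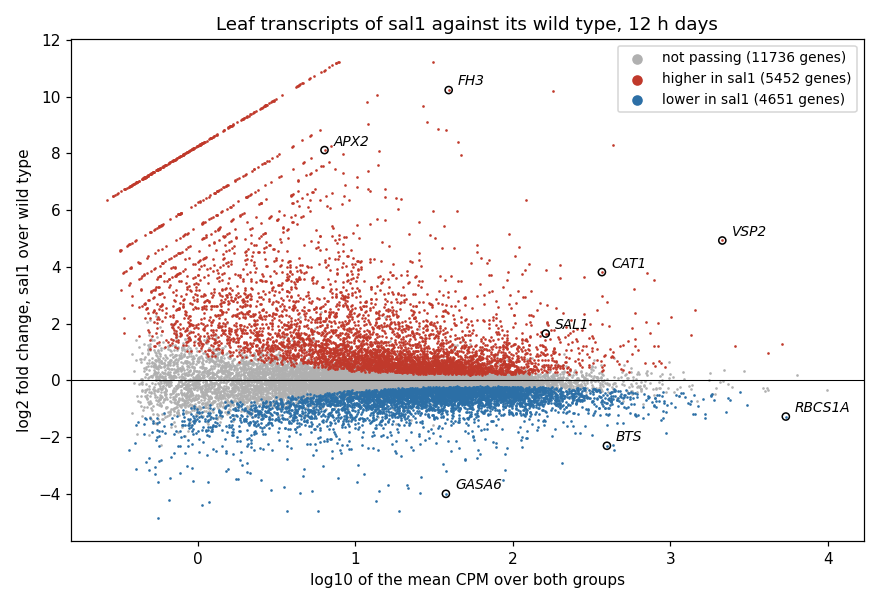
Log2 fold change of sal1 over wild type (vertical axis) against the log10 of the mean CPM over both groups (horizontal axis) for each nuclear gene tested; red points are called higher, blue called lower, grey not passing, and the ringed genes are named. Of the 5452 genes called higher 2965 lie at a log2 of 1 or more, and of the 4651 called lower 1051 lie at -1 or less.

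The 10 called genes with the highest fold changes among those at 5 CPM or more in a group were AT5G35640, AT1G48405, AT1G64795, AT2G14755, AT2G20970, AT2G16586, AT3G22730, AT4G33860, AT5G54050 and C2, and 9 of them had no count in wild type, the exception being AT1G64795 with 1 count. Fold changes of such genes depend on the fit's prior count, so bounds or count ratios are given instead. FH3 (AT4G15200, chromosome 4, 8662824 to 8666050, minus strand), a formin, had 66.7, 98.5 and 69.7 CPM in sal1 and 0.067, 0.063 and 0.049 CPM in wild type. BGAL14 (AT4G38590, chromosome 4, 18036056 to 18040928, plus strand), a beta-galactosidase, had 31.6, 22.5 and 28.9 CPM in sal1 and 0.067, 0 and 0 CPM in wild type. All 3 sal1 libraries carried both transcripts, and the wild-type libraries held 3 counts of FH3 and 1 count of BGAL14 in all. The ratio of counts, with its 95% counting interval, was 1320 (452 to 6400) for FH3 and 1420 (254 to 56100) for BGAL14.

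FH3 is named for its difference from the other mutants, and BGAL14 was chosen after its values were seen. Both genes lie just past the 3′ end of another gene on the same strand, and this was a recurring position. FH3 starts 283 bases past BAM5, BGAL14 133 bases past FP6, AT1G48405 18 bases past AGO1, AT4G02650 22 bases past BZO2H1, AT1G68526 34 bases past KCS6, and AT2G20970 72 bases past pEARLI4. AT4G02650 and AT1G68526 were picked for their short gaps among the genes at 5 CPM or more in sal1 and no count in wild type. AT2G13640, 25 bases past GONST1, is such a gene too and is not printed. The bases between the end of the upstream gene and the annotated start of the second gene are printed here because they are the whole gap between an upstream gene with counts in both groups and a downstream gene with 0 or 1 count in wild type. They are on the strand of the genes, 5′ to 3′, from TAIR10.1 (RefSeq), with TATAAA in capitals, at chr1:17885615-17885632 (minus) for AT1G48405, chr4:1156357-1156378 (plus) for AT4G02650, chr1:25712380-25712413 (minus) for AT1G68526, chr2:9009795-9009866 (plus) for AT2G20970 and chr4:18035923-18036055 (plus) for BGAL14.
AGO1 to AT1G48405: aagcaatcgacagaatcc
BZO2H1 to AT4G02650: gacaacctcggcgatttccatg
KCS6 to AT1G68526: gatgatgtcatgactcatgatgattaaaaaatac
pEARLI4 to AT2G20970: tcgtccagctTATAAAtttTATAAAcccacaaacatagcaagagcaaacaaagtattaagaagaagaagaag
FP6 to BGAL14: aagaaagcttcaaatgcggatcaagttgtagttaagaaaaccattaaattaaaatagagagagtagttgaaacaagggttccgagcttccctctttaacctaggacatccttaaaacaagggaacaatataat
The letters TATAAA, searched on the strand of the gene, occur in 1 of these 5 stretches, and in 1647 of all 6629 such stretches of 18 to 500 bases (24.8%).

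AT1G48405 had 13.8, 14.8 and 18.1 CPM in sal1 and no count in any wild-type library, which makes it at least 266-fold higher in sal1 against a floor of 3 counts over the wild-type group. AGO1, the Argonaute of the microRNA pathway that lies before it, had 312, 298 and 341 CPM in sal1 and 216, 214 and 217 CPM in wild type. The level of AT1G48405 per kilobase of exon was 20.1% of that of AGO1 in the same sal1 libraries. AT4G02650 had 7.88, 9.55 and 8.46 CPM in sal1 and no count in wild type, and its per-kilobase level was 12.5% of that of BZO2H1. AT1G68526 had 8.97, 8.04 and 9.41 CPM in sal1 and no count in wild type, with 24.3% of the per-kilobase level of KCS6, an elongase of wax synthesis. AT2G20970 had 14.85, 14.3 and 16.0 CPM in sal1 and no count in wild type, with 56.2% of the per-kilobase level of pEARLI4. In each case the upstream gene was well expressed in both groups: the log2 fold change was 0.55 ± 0.09 for AGO1 and -0.22 ± 0.08 for pEARLI4, both called, while those of BZO2H1 (adjusted p = 0.0688) and KCS6 (adjusted p = 0.377) did not pass. A higher share was that of SFH12, which starts 259 bases past LCB1 and reached 99.2% of the per-kilobase level of LCB1 in sal1 and had 1 count in wild type.

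Over the whole genome, 7628 nuclear genes had no count in any wild-type library, and 201 of them averaged at least 1 CPM in sal1, each detected in all 3 sal1 libraries. The highest was AT5G35640 with 15.7 ± 3.5 CPM in sal1 (SD, n = 3). It starts 1090 bases past GS2, the chloroplast glutamine synthetase. In the mirror case, 6116 genes had no count in any sal1 library, and none of these reached 1 CPM in wild type, where the highest value was 0.713 CPM. Of the 201 genes, 120 (59.7%) start inside a same-strand upstream gene or within 500 bases of its end, against 18.5% of all genes without a count in wild type. Of the 39 genes that reached 5 CPM in sal1, 25 start within 500 bases and 32 within 1000 bases. Not every one follows a same-strand gene: AT2G14755 (13.2, 15.7 and 16.4 CPM in sal1, no count in wild type) faces the 3′ end of APK1 on the other strand at a gap of 696 bases, and AT2G05060 (10.1, 9.14 and 7.18 CPM in sal1, no count in wild type) lies 131 bases from LHCB2.2 on the other strand. Whether reads over such a gene began at its own start or upstream of it was not tested, and counts per gene do not show it.

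The share with counts in sal1 followed the level of the upstream gene in wild type. Among genes without a count in wild type that start 0 to 500 bases past a same-strand gene, 1.02% reached 1 CPM in sal1 where the upstream gene was under 1 CPM (7 of 684; exact 95% interval 0.412% to 2.1%). The share was 9.30% at 1 to 10 CPM, 20.8% at 10 to 30 CPM and 25.5% at 30 to 100 CPM. It was 30.2% where the upstream gene was at 100 CPM or more (13 of 43; 17.2% to 46.1%).

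**Figure D2:**
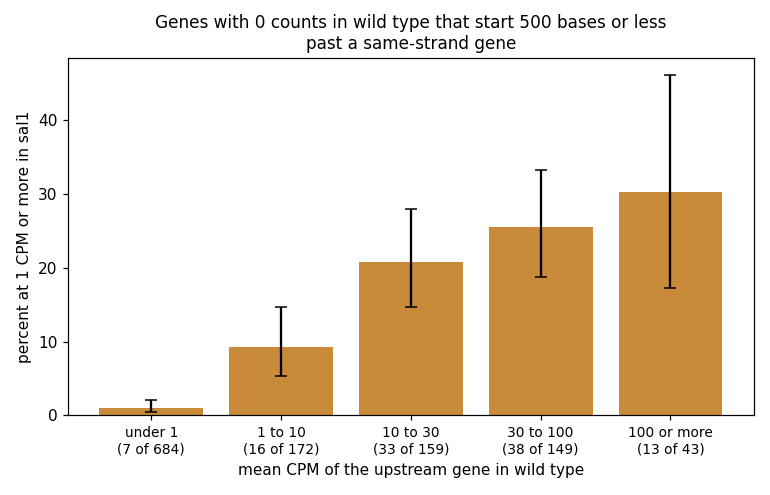
Percent of genes without a count in wild type that averaged at least 1 CPM in sal1 (vertical axis, from 0), by the mean level of the same-strand upstream gene in wild type (horizontal axis, classes in CPM, with the genes counted in brackets); error bars are exact 95% binomial intervals, which cover counting error only. The share is 1.02% in the lowest class and 30.2% in the highest.

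The same position went with higher levels among all tested genes. These include the 254 without a count in wild type, which could only be called higher and were not taken out. Of 532 tested genes whose start lies inside the upstream gene, 45.7% were higher in sal1 and 12.4% lower. The share higher was 37.6% at 0 to 200 bases past the upstream end, 31.5% at 201 to 500, 24.9% at 501 to 1000, 21.9% at 1001 to 2000 and 19.7% beyond, and the share lower ran the other way, 16.3% at 0 to 200 bases and 23.7% beyond 2000. Taken at 500 bases, 2147 of 5997 genes (35.8%, exact 95% interval 34.6% to 37.0%) were higher within, and 20.9% of the other 15842. The position held a larger share of the called genes with a log2 of at least 1 (42.1%) than of those with a log2 of -1 or less (14.4%), beside 27.5% of all tested genes. In the lowest class of mean level the shares higher were 50.8% near an upstream gene and 24.7% elsewhere, and in the highest class they were 20.7% near one and 18.6% elsewhere. Where the upstream neighbour pointed away, so that its 5′ end faced the gene at 200 bases or less, and no same-strand gene ended within 1000 bases, 14.8% of genes were higher and 28.0% lower.

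**Figure D3:**
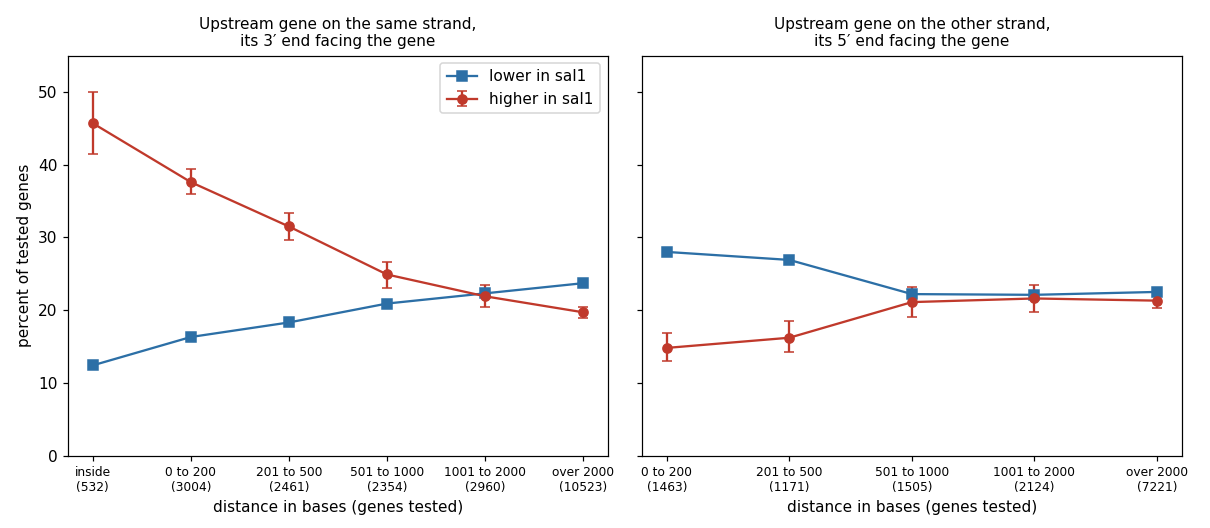
Percent of tested genes called higher and lower in sal1 (vertical axis) by distance in bases of the gene's start from the nearest upstream gene (horizontal axis, classes), for same-strand upstream genes (left) and divergent ones (right), with the genes tested in brackets; error bars on the share higher are exact 95% binomial intervals. With same-strand genes the share higher goes from 45.7% inside the upstream gene to 19.7% beyond 2000 bases, and with divergent ones from 14.8% to 21.3%.

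Among genes higher in sal1 at 5 CPM or more, 13 abut the upstream gene with no base between, and the 6 of them with the highest fold changes are named. CHX4, a cation exchanger that follows the chloroplast ribosomal protein gene RPL9, had 19.9, 17.59 and 19.3 CPM in sal1 and 0.673, 0.314 and 0.543 CPM in wild type, a log2 fold change of 5.20 ± 0.22 (adjusted p = 4.31e-06). RPL9 itself fell by 1.15 on the log2 scale. AT1G12244 rose by 3.68 ± 0.26 behind the vacuolar invertase gene ATBETAFRUCT4, which rose by 1.14 ± 0.22. NAP5 rose by 3.13, AT3G04000 by 2.15, AT1G61370 by 1.91 and AT5G54880 by 1.01. The exonic bases of AT3G04000 are in part shared with a gene on the other strand.

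Genes of PAP turnover and of XRN-dependent decay formed a list of 20, all tested, with 12 higher and 2 lower in sal1 and a median log2 fold change of 0.61. The kinases that make PAPS were among those that rose. APK2, a chloroplast APS kinase, had 473, 596 and 423 CPM in sal1 and 168, 112 and 91.8 CPM in wild type. APK1 had 281, 390 and 333 CPM in sal1 and 138, 103 and 90.6 CPM in wild type. Neither pair of groups overlapped, and the log2 fold changes were 2.00 ± 0.23 (adjusted p = 0.000475) and 1.60 ± 0.18 (adjusted p = 0.000429). APK3 rose by 0.65, and the value of APK4 was 0.58 ± 0.35, not past the test. Of the sulfotransferases, which release PAP, SOT12 rose by 1.93 ± 0.19, and the glucosinolate sulfotransferases SOT16, SOT17 and SOT18 rose by 0.69, 1.61 and 0.70. The call of SOT18 was lost without wild-type replicate 2 or 3. TPST, also of the list, was called higher, and its call was lost without wild-type replicate 3 or sal1 replicate 3. SOT12, SOT17 and SOT18 start within 500 bases of, or inside, an upstream gene, as does TAAC, a PAPS and ATP carrier of the plastid that rose by 0.52 ± 0.16 and lost its call without any of 4 libraries. AHL, a phosphatase related to SAL1 that also acts on PAP, rose by 0.72 ± 0.13 (adjusted p = 0.00313).

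Of the exoribonucleases, XRN2 fell. It had 66.6, 63.6 and 72.3 CPM in sal1 and 98.1, 95.2 and 109 CPM in wild type, with no overlap, a log2 fold change of -0.58 ± 0.09 and an adjusted p of 0.00161. XRN3 had 79.7, 91.8 and 89.9 CPM in sal1 and 90.4, 96.6 and 93.5 CPM in wild type, and XRN4 had 74.8, 80.0 and 74.3 CPM in sal1 and 76.3, 73.4 and 75.6 CPM in wild type. The groups overlapped for both, with log2 values of -0.10 ± 0.08 and 0.02 ± 0.07. VCS, a scaffold of mRNA decapping, fell by 0.39. The decapping subunits DCP1 and DCP2 did not pass, with values of 0.19 ± 0.09 and 0.26 ± 0.10.

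Among 18 genes of RNA silencing 4 were higher and 3 lower, or 38.9% called, under the 46.3% over all genes. AGO1, AGO2, DCL1 and DCL2 rose, with log2 values of 0.55, 0.46, 0.30 and 0.56. RDR6, the RNA-dependent RNA polymerase of post-transcriptional silencing, fell: it had 29.3, 27.3 and 28.3 CPM in sal1 and 54.7, 58.0 and 53.0 CPM in wild type, a log2 fold change of -0.96 ± 0.08 (adjusted p = 7.99e-05). SDN1, which degrades small RNAs, fell by 0.96, and AGO4 by 0.56. The call of AGO4 was lost without any of 5 libraries and that of DCL1 without any of 5.

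Jasmonate is a lipid-derived hormone made by LOX, AOS, AOC and OPR3, and its signal is held back by JAZ repressors, which are themselves induced by it. Of 24 genes of the pathway, all tested, 21 were higher in sal1 and 1 was lower, with a median log2 fold change of 1.84. All 21 had a log2 of at least 1. VSP2, a vegetative storage protein and marker of the pathway, had 2122, 5375 and 4896 CPM in sal1 and 244, 70.0 and 92.3 CPM in wild type, a log2 fold change of 4.93 ± 0.60 (adjusted p = 0.000564). Of the synthesis enzymes, LOX2 had 5471, 8662 and 7645 CPM in sal1 and 3266, 3058 and 2523 CPM in wild type. AOC1 had 171, 298 and 329 CPM in sal1 and 64.6, 77.1 and 48.8 CPM in wild type. In all 3 genes the lowest sal1 library was replicate 1, and the groups did not overlap.

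LOX3, LOX4, AOS, AOC2 and OPR3 rose by 1.69, 2.13, 1.23, 1.06 and 1.36 on the log2 scale. All 8 JAZ genes of the list rose, by 1.21 to 3.15. JAZ5 had 58.4, 112 and 87.4 CPM in sal1 and 17.2, 10.6 and 12.9 CPM in wild type (2.67 ± 0.27, adjusted p = 0.000219). JAZ1 had 115, 239 and 149 CPM in sal1 and 27.0, 31.3 and 28.1 CPM in wild type (2.54 ± 0.25, adjusted p = 0.000226). Replicate 2 was the highest of the sal1 libraries for both. The enzymes that inactivate the hormone rose too: CYP94B3 had 17.9, 49.0 and 27.4 CPM in sal1 and 2.22, 1.01 and 0.494 CPM in wild type (4.72 ± 0.54), CYP94C1 rose by 1.22 and the sulfotransferase ST2A by 2.98. JAR1, which conjugates jasmonate with isoleucine, and the receptor COI1 did not pass, with values of -0.03 ± 0.09 and 0.13 ± 0.10. PDF1.2, a defensin of the joint jasmonate and ethylene branch, had 6.69, 18.8 and 27.2 CPM in sal1 and 201, 94.4 and 24.8 CPM in wild type. The groups overlapped, and its call as lower was lost without sal1 replicate 2, without wild-type replicate 1 and with a replicate block (adjusted p = 0.0223 in all 6 libraries). MYC2, the main activator, rose by 1.48, but its exonic bases overlap a gene on the other strand nearly throughout.

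The order of the sal1 libraries was shared across this list. Replicate 2 was the highest sal1 library for 18 of the 21 genes called higher and replicate 1 the lowest for all 21. Over all 5452 genes called higher in sal1, replicate 2 was the highest for 2831 and replicate 1 the lowest for 3050. Without replicate 2, 21 jasmonate genes were called higher.

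**Figure D4:**
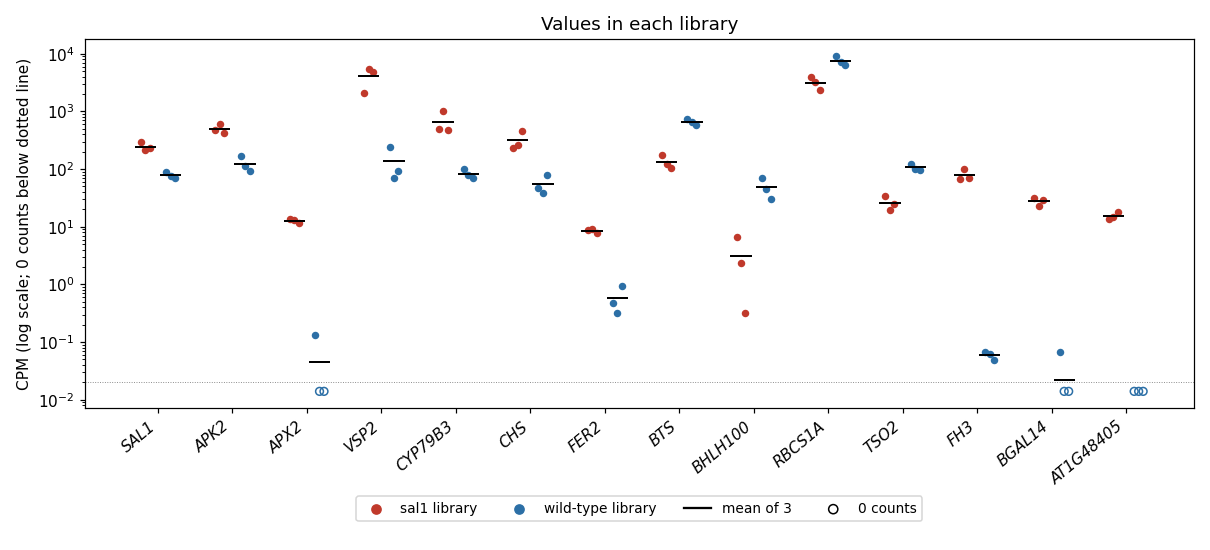
CPM per library (log axis) of 14 genes, with sal1 libraries (red) left of wild-type libraries (blue); each point is 1 library, the bar is the mean of 3, and open circles below the dotted line are libraries with 0 counts. VSP2 lies at 2122 to 5375 CPM in sal1 and 70.0 to 244 CPM in wild type, and no gene shown overlaps between the groups.

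Drought raises abscisic acid, which PP2C phosphatases of clade A hold in check and ABF, NAC and homeobox factors carry on. Of 32 genes of this output 30 were tested, 21 were higher in sal1 and 1 was lower, with a median of 0.83. RD20, a caleosin induced by drought, had 101, 350 and 186 CPM in sal1 and 14.1, 21.5 and 11.3 CPM in wild type, a log2 fold change of 3.77 ± 0.47 (adjusted p = 0.000644). NCED3, the enzyme that limits abscisic acid synthesis, had 42.4, 116 and 49.6 CPM in sal1 and 8.08, 9.43 and 6.57 CPM in wild type (3.11 ± 0.40). HAI2, a clade A phosphatase, had 27.6, 41.2 and 35.4 CPM in sal1 and 8.35, 10.6 and 8.94 CPM in wild type (1.90 ± 0.17, adjusted p = 0.000133). The groups did not overlap, and replicate 2 was the highest sal1 library for these 3 genes, as for 17 of the 21.

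HAI1, AHG3, ABI1, ABI2 and HAB1, of the same phosphatase clade, rose by 2.87, 1.17, 1.23, 1.07 and 0.71. The NAC factors ANAC019, ANAC055 and RD26 rose by 3.38, 3.28 and 3.02, and the homeobox factors ATHB-7 and ATHB-12 by 1.75 and 1.72. ERD10, a dehydrin, had 439, 399 and 441 CPM in sal1 and 209, 229 and 189 CPM in wild type (1.03 ± 0.11, adjusted p = 0.000264). Other classic markers did not pass: the log2 values were 0.35 ± 0.21 for RD29A, 0.16 ± 0.47 for RD29B, 0.35 ± 0.24 for RAB18 and 0.11 ± 0.13 for COR47. ABI5 was the 1 lower gene (-0.65 ± 0.17) and lost its call without wild-type replicate 2 or 3, while 2 genes were lower without sal1 replicate 1, and DREB2A (0.95 ± 0.29) lost its call without any 1 of the wild-type libraries. None of the 21 lies within 500 bases of a same-strand upstream gene.

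In the cold response 3 of 16 genes were higher and 3 lower, or 5 lower without wild-type replicate 3. The share called was 37.5%, under the 46.3% over all genes. KIN1 rose by 2.58 ± 0.37, to 45.8, 83.8 and 28.9 CPM in sal1, against 10.2, 7.92 and 8.39 CPM in wild type. The factors CBF1 and CBF3 and the marker COR15A did not pass, at -0.12 ± 0.46, 0.55 ± 0.23 and -0.52 ± 0.22. The call of CBF2 as lower (-1.41 ± 0.49) was lost under 8 of the other settings.

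Of 20 genes of the response to high light and reactive oxygen 19 were tested, 9 were higher and 1 was lower, with a median of 0.68. APX2, a cytosolic ascorbate peroxidase whose induction by high light is the classic readout of this signal, had 13.6, 13.2 and 11.4 CPM in sal1 and 0.135, 0 and 0 CPM in wild type, or 812 counts against 2. The ratio of counts was 324 (95% counting interval 89.5 to 2680). CAT1, a catalase, had 600.2, 758 and 701 CPM in sal1 and 50.6, 51.3 and 44.1 CPM in wild type, a log2 fold change of 3.82 ± 0.14 (adjusted p = 2.31e-06). Both lie close behind a same-strand gene, CAT1 at 95 bases past CAT3 and APX2 at 407 bases past AT3G09630. In sal1 the per-kilobase level of CAT1 was 15.6% of that of CAT3, and that of APX2 was 8.81% of that of its neighbour. ELIP1, an early light-induced protein that lies 4984 bases from the nearest such gene, had 8.74, 8.59 and 16.2 CPM in sal1 and 1.08, 1.38 and 1.98 CPM in wild type (2.89 ± 0.34, adjusted p = 0.000506).

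The zinc finger factors ZAT10 and ZAT12 rose by 1.24 ± 0.34 and 1.73 ± 0.49. ZAT10 lost its call without wild-type replicate 1 and ZAT12 without wild-type replicate 1 or 2. WRKY40 and APX1 rose by 1.34 and 0.68. CSD2, a chloroplast copper and zinc superoxide dismutase, fell by 0.69, a call that was lost in 1 model of all 30 libraries. CAT2, the main leaf catalase, the NADPH oxidase RBOHD and the factor HSFA2 did not pass, at 0.19 ± 0.13, 0.29 ± 0.13 and 0.31 ± 0.31.

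Sulfate is activated by APS, reduced by APR and SIR and built into cysteine by SERAT and OAS enzymes, or enters secondary sulfur compounds through the APK kinases. Of 29 genes of this pathway and of the response to sulfur starvation 28 were tested, 17 were higher and 2 were lower, with a median of 0.63. SIR, the sulfite reductase, had 751, 915 and 844 CPM in sal1 and 342.5, 374 and 373 CPM in wild type (1.204 ± 0.12, adjusted p = 0.000189). APR1 had 460.0, 535 and 424 CPM in sal1 and 193, 135 and 152 CPM in wild type (1.56 ± 0.16). APR2 and APR3, of the same family, did not pass, with values of 0.00 ± 0.10 and 0.10 ± 0.11. The vacuolar sulfate exporters SULTR4;1 and SULTR4;2 rose by 1.36 and 1.27.

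Starvation markers with no known role in reduction rose as well. LSU3 had 21.2, 17.2 and 27.5 CPM in sal1 and 5.59, 5.72 and 6.02 CPM in wild type (1.93 ± 0.18, adjusted p = 0.000177). SDI1, LSU1 and BGLU30 rose by 2.16, 2.16 and 3.71. SULTR2;1 and BGLU28 did not pass, at 0.12 ± 0.12 and -0.08 ± 0.50. APS2 and OASB, both of the plastid, fell by 0.39 and 0.44. Without sal1 replicate 2 the count higher was 14.

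Glucosinolates are sulfur-rich defence compounds that take 1 PAPS for each core structure and so release PAP. On the aliphatic branch 12 of 20 genes were higher and 2 lower (median 0.92), and on the indolic branch 10 of 18 were higher and 4 lower (median 0.53). CYP79B3, which starts the indolic branch from tryptophan, had 487, 999 and 469.8 CPM in sal1 and 101, 77.6 and 70.8 CPM in wild type (2.97 ± 0.32, adjusted p = 0.000314). CYP79B2 had 469.5, 843 and 429.7 CPM in sal1 and 92.7, 109 and 106 CPM in wild type (2.50 ± 0.26). Replicate 2 was highest for both, as for 9 of the 10 indolic genes called higher. UGT74B1 and the factor MYB34 rose by 1.06 and 1.57, and MYB34 lost its call without wild-type replicate 2. The 4 lower genes were the factor MYB51 (-0.94 ± 0.17), CYP81F2 (-1.70 ± 0.24), IGMT2 and PEN2, of which CYP81F2 and PEN2 are known for the indolic defence response.

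On the aliphatic branch CYP79F2 had 23.2, 32.3 and 23.5 CPM in sal1 and 5.99, 4.59 and 5.63 CPM in wild type (2.28 ± 0.18, adjusted p = 6.74e-05). It starts 273 bases past OCT3. CYP79F1, BASS5, BCAT4 and MYB76 rose by 1.45, 1.70, 1.202 and 1.47. The main regulator MYB28 fell by 0.71 ± 0.10, and MAM3, an enzyme of side-chain elongation, fell by 1.45. Wild-type replicate 1 was high for several of these genes: BASS5 had 214, 244 and 232 CPM in sal1 and 101, 57.1 and 54.9 CPM in wild type. Without that library 18 of the 20 genes were called higher, and without wild-type replicate 2 the count was 8.

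Flavonoid synthesis runs from CHS through CHI, F3H and DFR to the anthocyanins, under MYB75 and bHLH partners. Of 19 genes 18 were tested, 14 were higher and none lower (1 without sal1 replicate 1), with a median of 1.95. CHS had 229, 267 and 467 CPM in sal1 and 46.9, 37.97 and 77.9 CPM in wild type (2.56 ± 0.34). DFR had 133, 123 and 292 CPM in sal1 and 21.7, 21.9 and 39.1 CPM in wild type (2.72 ± 0.39, adjusted p = 0.00114). MYB75, the anthocyanin regulator PAP1, which is a protein and not the nucleotide PAP, had 40.6, 40.3 and 58.8 CPM in sal1 and 5.99, 10.9 and 8.25 CPM in wild type (2.47 ± 0.24, adjusted p = 0.000179). The groups did not overlap. Here the highest sal1 library was replicate 3 for all 14 genes, unlike in the jasmonate list.

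F3H rose by 3.02, but its exonic bases overlap a gene on the other strand nearly throughout. F3'H, LDOX, UGT79B1, TT8 and GL3 rose by 2.82, 2.58, 2.66, 1.403 and 1.76. The flavonol branch did not pass: FLS1 was at -0.56 ± 0.39, MYB12 at -0.54 ± 0.57 and MYB111 at 0.38 ± 0.45. The repressor MYBL2 was at 0.02 ± 0.26. None of the 14 genes lies within 500 bases of a same-strand upstream gene.

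Iron in leaves is sensed by a circuit in which BTS, an E3 ligase, restrains the bHLH factors that drive the iron deficiency response, while ferritins store the metal. Of 19 genes 18 were tested, 5 were higher and 10 lower, with a median of -1.28. Without sal1 replicate 3, and likewise without wild-type replicate 1 or 3, 3 were higher. BTS had 173, 123 and 104 CPM in sal1 and 739, 648 and 585 CPM in wild type (-2.30 ± 0.20, adjusted p = 0.000116). BHLH100 had 6.56, 2.31 and 0.318 CPM in sal1 and 69.3, 45.6 and 30.4 CPM in wild type (-3.97 ± 0.70, adjusted p = 0.00288). NAS4, a nicotianamine synthase, had 15.4, 10.3 and 11.3 CPM in sal1 and 79.8, 60.2 and 67.5 CPM in wild type (-2.49 ± 0.17, adjusted p = 4.14e-05). No sal1 library reached a wild-type library for these 3 genes.

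BHLH39, BHLH101, PYE, FRO3 and OPT3 fell by 3.31, 2.63, 1.24, 3.15 and 1.58, and BHLH38, in part shared with a gene on the other strand, by 3.77. On the storage side FER1 had 130, 248 and 252 CPM in sal1 and 30.6, 45.5 and 49.5 CPM in wild type (2.32 ± 0.28). FER2, usually a seed ferritin, had 8.65, 9.04 and 7.82 CPM in sal1 and 0.471, 0.314 and 0.938 CPM in wild type (3.82 ± 0.33). Its start lies inside the end of ENGase85B, which fell by 0.57 ± 0.12. In sal1 the per-kilobase level of FER2 was 216% of that of ENGase85B. The metal transporter YSL1 rose by 1.97. FER3 and the factor ILR3 did not pass, at -0.19 ± 0.09 and -0.07 ± 0.07.

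To set these lists beside a sequence feature, the 250 bases before each annotated start were searched on both strands for CACGTG, the G-box, which reads the same on either strand and is bound by bZIP and bHLH factors. It occurs in 1920 of 32546 such windows (5.90%), in 6.91% of tested genes, in 8.58% of those higher and in 5.46% of those lower in sal1. It occurs before 7 of 19 flavonoid genes, 6 of 19 iron genes, 6 of 32 drought genes, 4 of 24 jasmonate genes and 5 of 35 photosynthesis genes. Windows of a flavonoid gene and a jasmonate gene that rose and of an iron gene that fell are shown, from TAIR10.1 (RefSeq) on the strand of the gene with CACGTG in capitals, at chr5:17166033-17166282 (minus) for DFR, chr1:10596102-10596351 (plus) for JAZ8 and chr3:6273716-6273965 (plus) for BTS.
DFR: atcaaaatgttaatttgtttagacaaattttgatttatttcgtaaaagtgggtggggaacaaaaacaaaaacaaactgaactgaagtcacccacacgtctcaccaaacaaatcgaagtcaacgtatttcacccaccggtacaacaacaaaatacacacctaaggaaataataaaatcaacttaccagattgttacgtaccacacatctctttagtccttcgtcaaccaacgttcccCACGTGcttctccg
JAZ8: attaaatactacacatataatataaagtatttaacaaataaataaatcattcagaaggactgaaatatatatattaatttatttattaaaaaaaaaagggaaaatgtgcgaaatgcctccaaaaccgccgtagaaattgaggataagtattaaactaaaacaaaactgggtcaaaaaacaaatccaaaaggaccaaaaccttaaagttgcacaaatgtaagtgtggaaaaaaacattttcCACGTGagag
BTS: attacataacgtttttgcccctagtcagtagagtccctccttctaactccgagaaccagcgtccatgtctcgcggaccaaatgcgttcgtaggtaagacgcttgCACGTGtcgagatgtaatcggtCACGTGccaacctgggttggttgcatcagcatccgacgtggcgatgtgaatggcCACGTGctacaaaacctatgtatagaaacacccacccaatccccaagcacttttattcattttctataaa
The match ends close to the start in DFR and JAZ8, and BTS holds 3 matches. JAZ8 rose by 3.15 ± 0.57. A match is a run of letters and no record of binding, and the members were chosen with these results known.

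Nuclear photosynthesis genes encode light-harvesting proteins, photosystem subunits and enzymes of carbon fixation. Of 35 genes none was higher (1 without wild-type replicate 1) and 15 were lower, with a median of -0.53, beside 34.8% lower in the highest class of mean level, which holds nearly all of them. RBCS1A, a Rubisco small subunit, had 3963, 3183 and 2344 CPM in sal1 and 9268, 7316 and 6303 CPM in wild type (-1.27 ± 0.25, adjusted p = 0.00509). RCA, the activase, had 1712, 1449 and 1083 CPM in sal1 and 3342, 3208 and 2681 CPM in wild type (-1.12 ± 0.20, adjusted p = 0.0031). In both genes replicate 1 was the highest library of each group, and the groups did not overlap. In bulk leaves fewer cells of a type and less RNA per cell cannot be told apart.

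GAPB, PRK, FBA2 and SBPASE fell by 0.92, 0.74, 0.83 and 0.86, and LHCB4.3 by 1.67. Most light-harvesting genes did not pass: LHCB1.3 was at -0.35 ± 0.24, LHCA1 at -0.46 ± 0.23 and LHCB6 at 0.03 ± 0.25. The count of lower genes was 9 without sal1 replicate 2 or 3, 9 without wild-type replicate 2, and 18 at most over the libraries left out. Of 5 mesophyll markers 3 were lower, and their summed level was 12490 to 16740 CPM in sal1 and 19760 to 30130 CPM in wild type. Their part in the photosynthesis result was not tested, and 4 of them are members of both lists.

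Of 12 markers of dividing cells none was higher and 10 were lower, with a median of -1.05 and a summed level of 93.1 to 148 CPM in sal1 and 248 to 327 CPM in wild type. TSO2, a subunit of ribonucleotide reductase, had 33.8, 19.2 and 25.3 CPM in sal1 and 125, 102 and 96.8 CPM in wild type (-2.05 ± 0.20). PCNA1, the sliding clamp of replication, had 10.3, 7.59 and 9.23 CPM in sal1 and 22.1, 19.9 and 16.3 CPM in wild type (-1.10 ± 0.16). Without sal1 replicate 2 or 3, and likewise without wild-type replicate 1, 5 of the 12 were lower.

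Guard cell markers summed to 109 to 125 CPM in sal1 and 98.3 to 116 CPM in wild type, with 1 of 6 higher and none without sal1 replicate 3 or without wild-type replicate 2 or 3. Markers of the stem secondary wall summed to 131 to 143 CPM in sal1 and 145 to 276 CPM in wild type, with 3 of 11 tested lower and wild-type replicate 1 at the top. None of the 11 was lower without sal1 replicate 2 or 3, and 5 were without wild-type replicate 3. Floral organ markers summed to 12.1 to 15.9 CPM in sal1 and 6.54 to 8.69 CPM in wild type, most of it SHP1, which rose by 0.84, and PI, which rose, had 64 counts in sal1 and 1 in wild type. AP1, AP3, SEP1, SEP2, SEP3, CRC and LFY were too low to test in both groups. Of 6 pollen and tapetum markers 3 were at 0 in all 6 libraries and AMS alone was tested, with 119 counts in sal1 and 36 in wild type (1.41 ± 0.36, higher). Of 9 root markers 3 were at 0 in all 6 libraries, SHR fell by 0.50, and CASP1 rose by 2.83 to 1.46, 1.61 and 1.23 CPM in sal1, against 0.202, 0.126 and 0.247 CPM in wild type.

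Genes that respond to mitochondrial dysfunction, among them alternative oxidase, numbered 19, of which 17 were tested, 12 were higher and 2 lower (median 1.60). AOX1A had 92.4, 134 and 107 CPM in sal1 and 28.0, 35.9 and 29.2 CPM in wild type (1.84 ± 0.16, adjusted p = 0.000107). ANAC013, a NAC factor of this response, had 35.3, 50.2 and 48.0 CPM in sal1 and 15.4, 12.7 and 15.9 CPM in wild type (1.60 ± 0.16). The groups did not overlap. Replicate 2 was the highest sal1 library for all 12, and 6 of the 12 start within 500 bases of, or inside, a same-strand upstream gene. AOX1A and ANAC013 are not among these 6. DTX1 and PMAT2 fell by 0.97 and 1.06, and PMAT2 lost its call without sal1 replicate 3.

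Of 16 heat shock genes 12 were tested, 7 were higher and 3 lower (median 0.75), and 5 of the 7 have such an upstream neighbour. HSP18.2 had 11.8, 10.2 and 11.1 CPM in sal1 and 3.16, 2.64 and 1.93 CPM in wild type (2.11 ± 0.20), 240 bases past VIP2. HSP101 rose by 0.84 ± 0.10 with no such neighbour. The heat factor HSFA2 did not pass. MBF1C, ROF2 and BIP3 were called lower, at -0.52, -0.69 and -1.15, but the groups of BIP3 overlapped and the calls of ROF2 and BIP3 were lost without any of 5 and 4 of the libraries. The count of lower genes was 1 without sal1 replicate 2 or 3 or without wild-type replicate 2 or 3.

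Leaf senescence genes rose in 10 of 17 cases and fell in none (median 0.90), although 1 was lower without sal1 replicate 1 and without wild-type replicate 1. ASN1, an asparagine synthetase induced by sugar starvation, had 85.0, 237 and 74.9 CPM in sal1 and 13.3, 16.8 and 14.7 CPM in wild type (3.15 ± 0.44). The NAC factor ORE1 rose by 2.39 ± 0.48 and the chlorophyll breakdown genes NYC1, PPH and SGR1 by 1.28, 1.22 and 0.82. SAG12, the marker of late senescence, had 10.8, 7.69 and 6.09 CPM in sal1 and 8.89, 6.66 and 44.0 CPM in wild type and did not pass. The groups overlapped, and wild-type replicate 3 stood apart. Replicate 2 was the highest sal1 library for all 10 genes called higher, and without it 10 were called higher.

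**Figure D5:**
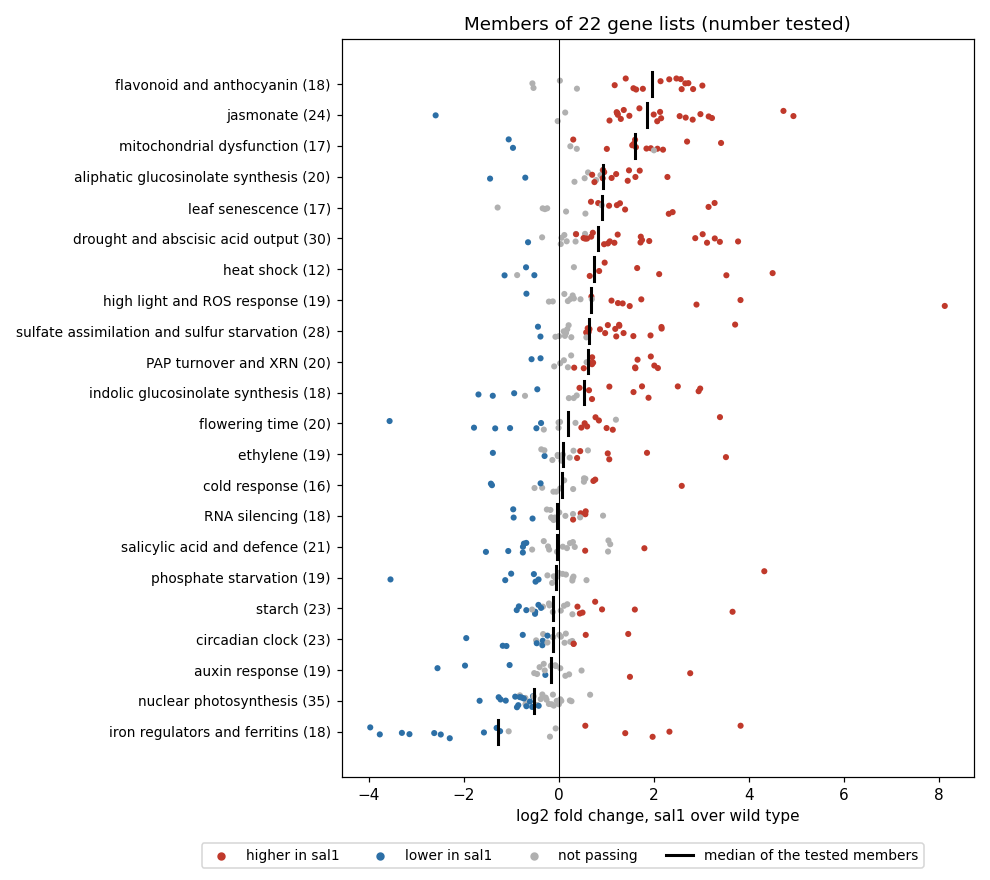
Log2 fold change of sal1 over wild type (horizontal axis) of each tested member of 22 gene lists (rows, with the number tested); red points were called higher, blue lower, grey did not pass, and the black bar is the median. The flavonoid and jasmonate lists lie highest at 1.95 and 1.84, and the iron list lowest at -1.28.

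The circadian clock list had 4 of 23 genes higher and 8 lower, or 5 lower without wild-type replicate 2. CCA1, a morning factor, had 49.96, 43.7 and 27.8 CPM in sal1 and 16.2, 13.9 and 14.2 CPM in wild type (1.46 ± 0.21, adjusted p = 0.00112), and starts 449 bases past AT2G46820. Its partner LHY had 4.51, 2.61 and 4.09 CPM in sal1 and 6.13, 4.15 and 5.43 CPM in wild type and did not pass (-0.48 ± 0.26). The groups did not overlap for CCA1 and did for LHY, and the difference between the 2 genes was not tested. LNK2 and RVE1 fell by 1.11 and 1.95, and the evening gene TOC1 by 0.47 ± 0.08. GI, ZTL and PRR7 did not pass. The hour of sampling is not given in the sources used here.

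Of 22 flowering time genes 20 were tested, 8 were higher and 6 lower. Without sal1 replicate 3, and likewise without wild-type replicate 2, 5 were higher. MAF5, a repressor of the FLC family, had 2.37, 2.01 and 0.409 CPM in sal1 and 13.1, 17.8 and 25.6 CPM in wild type (-3.57 ± 0.49, adjusted p = 0.000963), and MAF4 fell by 1.79. MAF3, in the same gene cluster, had 25.3, 28.2 and 26.5 CPM in sal1 and 9.36, 14.1 and 12.9 CPM in wild type (1.13 ± 0.15). The members of the cluster thus differed in direction. SNZ and AGL24 fell by 1.34 and 1.03. FLC did not pass (1.197 ± 0.45, adjusted p = 0.0579), and FT was too low to test.

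Salicylic acid and defence genes were called at 38.1%, under the 46.3% over all genes: 2 of 21 were higher and 6 lower. Without sal1 replicate 2 or 3, and without wild-type replicate 1 or 2, 1 was higher. WRKY54 had 34.5, 35.4 and 35.7 CPM in sal1 and 101, 100.4 and 105 CPM in wild type (-1.54 ± 0.07, adjusted p = 6.37e-06). Its partner WRKY70 fell by 0.74, and EDS1 and PAD4 by 0.76 each. PR1 had 239, 324 and 161 CPM in sal1 and 117, 437 and 516 CPM in wild type. Its groups overlapped, as did those of PR2, PR5 and ICS1, none of which passed. PAD3, of camalexin synthesis, rose by 1.80 ± 0.31.

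In ethylene signalling 6 of 19 genes were higher and 2 lower, or 42.1% called, under the 46.3% over all genes. The receptors ETR2, ERS1 and ERS2 rose by 1.06, 0.38 and 1.03, and the synthase ACS2 by 3.51 ± 0.73, with 6.74, 25.7 and 8.78 CPM in sal1 and 0.202, 2.39 and 0.988 CPM in wild type. EIN2, EIN3 and CTR1 did not pass. Of 21 phosphate starvation genes 19 were tested, 1 was higher and 6 lower, with 3 higher without sal1 replicate 1. This list was called at 36.8%, also under the share over all genes. The higher one was RNS1, a secreted ribonuclease, with 6.10, 16.2 and 16.4 CPM in sal1 and 1.01, 0.692 and 0.296 CPM in wild type (4.32 ± 0.52, adjusted p = 0.000568). SPX3, a sensor of phosphate status, fell by 3.55 ± 0.64.

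Of 23 starch genes 7 were higher and 7 lower. BAM5, a cytosolic beta-amylase, had 483, 555 and 540.3 CPM in sal1 and 70.5, 12.8 and 42.4 CPM in wild type (3.65 ± 0.52, adjusted p = 0.00115). The granule-bound synthase GBSS1 rose by 1.60 and SS4 fell by 0.89. Of 20 auxin response genes 19 were tested, 2 were higher and 4 lower, or 2 lower without sal1 replicate 2 and without wild-type replicate 1. The auxin genes were called at 31.6%, under the 46.3% over all genes. GH3.3 and GH3.5, which conjugate hormones with amino acids, rose by 2.76 and 1.49, and IAA19 and SAUR15 fell by 1.04 and 2.56.

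The 10 called genes with the lowest fold changes among those at 5 CPM or more in a group included BHLH100 of the iron list and 9 genes of none of the lists, among them GASA6, AT3G46490, AACT1 and MRD1. GASA6, a gibberellin-responsive peptide gene, had 6.01, 3.62 and 3.68 CPM in sal1 and 65.6, 69.2 and 77.6 CPM in wild type (-3.99 ± 0.20, adjusted p = 8.37e-06). AT3G46490 had 0.774, 0.101 and 0.455 CPM in sal1 and 14.2, 10.4 and 8.89 CPM in wild type (-4.61 ± 0.45, adjusted p = 0.000206). AACT1, an acyltransferase, had 0.410, 0.302 and 0.136 CPM in sal1 and 15.6, 2.89 and 2.82 CPM in wild type (-4.60 ± 0.87). Wild-type replicate 1 stands above the other wild-type libraries for AACT1, and no group overlapped for the 3 genes. MRD1 fell by 4.60 ± 0.26, but nearly all of its exonic bases overlap a gene on the other strand. GASA6 overlaps AT1G74675 on the other strand, which fell by 4.23.

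To see what set sal1 apart in the series, its effect was tested against the mean effect of the other 5 mutant comparisons. Each was taken against the wild type of its own set. These comparisons are cue1 and hda6 at 12 h, sharing a wild type, cue1 and msh1 at 16 h, also sharing one, and hda6 at 16 h. Entries on no gene made up 2.58% to 5.78% in the 12 h set of cue1 and hda6. They made up 48.5% to 49.4% in the sal1 set and 48.0% to 49.6% at 16 h. The sets thus differ in day length and in this share, and the part of either in the contrast was not tested. Of 22752 genes tested in the 30 libraries 10518 (46.2%) were called, 5115 (22.5%) more positive and 5403 (23.7%) more negative in sal1. By list, 21 of 24 tested jasmonate genes, 23 of 30 drought genes, 18 of 20 aliphatic glucosinolate genes, 17 of 28 sulfur genes and 14 of 18 flavonoid genes were more positive in sal1. Of 18 tested iron genes 11 were more negative. The contrast holds the sal1 effect itself, and the lists were chosen with earlier results known, so these counts are no separate support. The mean also hides single effects: ANAC019 was at 1.77 in hda6 at 12 h and at -2.04 in msh1 at 16 h. The 5 called genes with the largest positive fitted differences, among those at 5 CPM or more in sal1 or its wild type, were AT5G51420, AT1G48405, FH3, AT1G62000 and SFH12. Their wild type held 0 to 3 counts, so the fitted size is no measure, and against that wild type AT5G51420, AT1G48405 and AT1G62000 were at least 160-fold, 266-fold and 117-fold higher (floor of 3 counts over the group), and the ratio of counts was 1200 for SFH12 (95% counting interval 216 to 47600). All 5 start inside or within 500 bases of a same-strand upstream gene. Which genes could be called here depended on counts in the other groups, so this is no separate support for that position. AT2G05060 and AT2G14755, which start 3070 and 3999 bases past one, had larger fitted values than AT1G62000 but were not called. For genes without counts in several of the other groups this contrast cannot be estimated, APX2 among them.

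The most negative called values, with the same limit on level, were those of SAG12 (-7.97 ± 2.696), BHLH100 (-5.39 ± 0.96), BHLH38 (-5.10 ± 0.91), AACT1 (-5.04 ± 1.14) and AT1G13609 (-4.80 ± 0.84). SAG12 did not pass between sal1 and its own wild type (-1.29 ± 0.66, adjusted p = 0.145), and its mean in the other 8 groups lay between 0 and 46.8 CPM. AT1G13609, a defensin-like gene, had 30.01, 9.09 and 2.68 CPM in sal1 and 227, 125 and 124 CPM in wild type. SAL1 differed by 1.83 ± 0.11 and XRN2 by -0.75 ± 0.08.

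Transcripts that border a ribosomal RNA gene on chromosome 3 stood far apart and were named after their values were seen. AT3G41762 (chromosome 3, 14195447 to 14196865, minus strand) had 874, 788 and 919 CPM in sal1 and 2.89, 2.52 and 2.86 CPM in wild type, a log2 fold change of 8.28 ± 0.15 (adjusted p = 1.51e-07). AT3G41761 and AT3G06325 lie within its bounds on the other strand and rose by 10.21 and 8.42, and reads of the 3 cannot be told apart. The ribosomal RNA gene AT3G41768 begins 1598 bases past AT3G41761 and had no count in either group. AT1G64795 on chromosome 1, overlapped by ILA on the other strand, had 56.2, 54.0 and 75.6 CPM in sal1 and 0, 0.063 and 0 CPM in wild type, while ILA averaged 245 CPM in sal1 and 273 CPM in wild type. Some of these transcripts were also higher in hda6 than in its own wild type. AT1G64795 averaged 29.2 CPM in hda6 at 12 h and 17.2 CPM at 16 h, the highest means among the other 8 groups. The log2 fold change of hda6 over its own wild type at 12 and 16 h was 4.38 and 5.08 for AT3G41761 and 3.73 and 2.73 for AT3G41762, at means of 9.89 CPM or less. At 12 h AT3G41762 averaged 1.29 CPM in hda6 and 0.0924 CPM in the wild type of hda6. Both lie below the 2.76 CPM of the wild type of sal1.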

How the data were processed

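RNA-seq of Arabidopsis leaf at bolting was deposited as 1 table per library with a count for each of 34262 entries, of which 32548 are nuclear genes. The tools named in the submitters' processing notes are STAR 2.7.10a, Trim Galore 0.6.6 and cutadapt 2.8, with the build TAIR10; which program counted the reads, and whether by strand, is not given in the sources used here. The counts were used as deposited, and 5 totals that name no gene were left out of library sizes and tests. Per the labels' protocols the material was total RNA read as paired ends. Coordinates, names and sequences come from TAIR10.1 (RefSeq), in which all 32548 nuclear genes of the files were found.

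The 3 sal1 and 3 wild-type libraries were fitted with edgeR 4.0.16 in R 4.3.3 (TMM, low counts removed with filterByExpr, quasi-likelihood F-test, Benjamini-Hochberg adjustment over all genes tested, called at an adjusted p under 0.05). Every adjusted p in the text is from that test. The SE is the log2 fold change divided by the root of F. Differences from the other 5 mutant effects came from 1 model of all 30 libraries. A gene with 0 counts in wild type was set against 3 counts over that group, which gives a lower bound, and one with 1 to 3 counts a ratio with an exact 95% interval; intervals and floors cover counting error only. Distances run from the 3′ end of the nearest upstream gene on the same strand to the annotated start. Counts were simulated for the 21839 genes of the main fit. After the filter on low counts 21608 were left, 196 of them changed, about equally up and down. Of the genes left that were changed by a log2 of 1, 72.2% were recovered, and of those changed by 2, 92.9%. Of unchanged genes 0.056% were called. Far fewer genes changed in the simulation than were called in the data, so these rates need not hold for this comparison.

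The members, lists and several tests were chosen with earlier results of these data known. Named genes were SAL1, the 10 highest and 10 lowest called fold changes at 5 CPM or more, and the 3 smallest adjusted p of each list. Others were the called genes of the PAP and XRN list and the 6 highest genes with 0 counts in wild type. The 5 highest and 5 lowest called differences from the other mutants and the 6 nearest to an upstream gene were also named. List members may be named as such. Nothing says that replicates came from separate plantings, so p-values measure the spread between these siblings. Alternatives were DESeq2 1.42.0, other scaling and filters, all 30 libraries in 1 model, a replicate block and leaving out each library.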

Additional observations from a re-analysis of the deposited data

Results flagged for a closer look

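The share of entries that overlapped more than 1 gene, a total outside the gene counts, was 0.426% to 0.458% in the 3 sal1 libraries and 0.240% to 0.263% in the 3 wild-type libraries. It was 0.207% to 0.286% in the 24 libraries of the other 8 groups, so that the lowest sal1 library, at 0.426%, lay above every other library of the series. These entries entered no test.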

How the results depend on the processing

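Of 321 results, none changed direction under any alternative. Compared with the 10103 genes called, DESeq2 called 10418, RLE scaling 10097, no filter 10423, a minimum of 1 CPM in 3 libraries 9711, and 1 model of all 30 libraries 11836; without 1 library the count was 8088 to 10220, with 4558 to 5584 higher and 3491 to 4636 lower. Higher genes made up 54% of calls with TMM and 49.6% in the model of all 30 libraries. With a log2 of at least 1 in size the calls were 4016 (2965 higher, 1051 lower), and without genes inside or within 500 bases of an upstream gene 3305 were higher. The counts without 1 library were 9161 to 10600 for the difference from the other mutants and 187 to 244 for the genes without a wild-type count, which numbered 777 at 0.1 CPM and 39 at 5 CPM in place of 201 at 1 CPM. The share higher near an upstream gene was 38.8% at 200 bases, 32.7% at 1000 and 15.5% beside a divergent gene, in place of 35.8%. SAL1 kept a log2 of 1.52 to 1.75 without any 1 library. These settings on level, position and log2 size were chosen after seeing the data. A total of 69 named or listed genes lost a call under at least 1 setting.

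Libraries with the same replicate number correlated at 0.152, 0.104 and 0.0747 in their deviations from the group means. Those with different numbers correlated at -0.122 to 0.0162, so each library correlated best with its own number. The main fit did not take the numbers as pairs, and its p-values leave out any such block. Whether libraries of 1 number were handled together was not tested. With a replicate block 10568 genes were called, 10302 differed from the other mutants and SAL1 was at 1.64. Library depth limits calls among genes of a few counts.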

Other observations

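MicroRNAs guide Argonaute to cut their target transcripts. The list of 83 targets of 22 microRNAs was chosen after values were seen. Of 78 tested, 39 were higher in sal1 and 6 lower, beside 25.0% higher and 21.3% lower among all genes, with a median log2 fold change of 0.34. Without 1 library 27 to 38 were higher. A target each of miR159 and miR160 is shown with its site because all tested targets of these 2 rose. Sites are given as DNA from TAIR10.1 (RefSeq), on the strand of the gene. Capitals mark the seed (bases 2 to 8) of each microRNA and the target bases opposite it, paired or not. Of the 21 bases of each site, 3 do not pair in MYB33, among them a base in capitals, and 1 does not pair in ARF17. The printed stretches lie at chr1:27713234-27713254 (minus) for miR159a, chr5:1839579-1839599 (plus) for MYB33, chr2:16340282-16340302 (plus) for miR160a and chr1:29274189-29274209 (plus) for ARF17.
miR159a: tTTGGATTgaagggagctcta
MYB33 site: tggagctcccttcATTCCAAt
miR160a: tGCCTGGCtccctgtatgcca
ARF17 site: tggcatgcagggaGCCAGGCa

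MYB33, a MYB factor of anthers and seeds, had 69.7, 72.9 and 65.7 CPM in sal1 and 20.1, 16.6 and 16.6 CPM in wild type (1.97 ± 0.10, adjusted p = 1.05e-05). MYB65, with the same site, had 36.7, 42.1 and 41.4 CPM in sal1 and 4.31, 3.65 and 2.91 CPM in wild type (3.48 ± 0.15). The groups did not overlap for either. The auxin response factors ARF10, ARF16 and ARF17 rose by 1.51, 1.14 and 1.66. Of 7 growth-regulating factors tested 4 rose, and GRF3 had 101, 86.9 and 95.3 CPM in sal1 and 15.8, 17.3 and 15.5 CPM in wild type (2.54 ± 0.09). Others did not follow: LAC2 and CSD2 fell by 2.22 and 0.69, none of 4 miR408 targets rose, and of 5 miR319 targets none rose and TCP10 fell by 0.64. Counts per gene do not tell whole transcripts from cleaved ones.

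The 10 gene families below were chosen after values were seen. Over all tested genes 25.0% were higher and 21.3% lower, or 46.3% called. WRKY factors, NAC factors and the cyclins were called at 40%, 41.1% and 33.3%, under that share. Expansins and UDP-glycosyltransferases were called at 50% each, near it. Of 19 core histone genes tested 1 was higher in sal1 and 14 were lower, of 27 kinesins 2 were higher and 15 lower, and of 24 cyclins of the A, B and D types none was higher and 8 were lower. Of 56 NAC factors tested 20 were higher and 3 lower, of 69 MYB factors 30 were higher and 6 lower, and of 140 cytochrome P450 genes 55 were higher and 21 lower. Of 23 glutathione transferases of class tau 13 were higher and 3 lower, of 48 UDP-glycosyltransferases 16 were higher and 8 lower, of 55 WRKY factors 13 were higher and 9 lower, and of 20 expansins 5 were higher and 5 lower.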
